A study of Mus musculus with 10 samples.

Results

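Gene expression in sgBap1 livers was compared between carbon tetrachloride (CCl4) and vehicle, 48 hours after a single injection. The comparison took the 5 sgBap1 libraries of the 10 bulk RNA-seq libraries of the series, 3 sgBap1-CCl4 and 2 sgBap1-Veh, chosen by the genotype and treatment in their labels. All mice were Cas9 Lox-Stop-Lox females aged 16 to 20 weeks that carried a silent Cas9 gene. They received an AAV8 vector with a guide RNA under the U6 promoter, either against Bap1 (sgBap1) or non-targeting (NTC), and Cre under the TBG promoter, which is active in hepatocytes, so that the other liver cells were not meant to be edited. Treatment followed 10 days later and was either CCl4, 1 part in 9 parts of olive oil at 10 µL per g of body weight, or olive oil alone. RNA came from the right lobe, and the labels name each library as a liver replicate without an animal number, so the p-values below measure the spread between these samples. The 5 NTC libraries (2 NTC-Veh and 3 NTC-CCl4) were fitted together with these, so they also entered the p-values of the sgBap1 comparison. Apart from that, their values are given below to check the labels and to set beside the sgBap1 livers.

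CCl4 is a solvent that cytochrome P450 enzymes, above all Cyp2e1, turn into a radical that attacks membrane lipids. These enzymes lie in the hepatocytes around the central vein, where the cells die. The remaining hepatocytes then enter the cell cycle, monocytes arrive and clear debris, and stellate cells, the vitamin A storing cells of the sinusoid, turn into matrix-producing myofibroblasts. Bap1 is a nuclear deubiquitinase that removes ubiquitin from histone H2A, and it is a tumour suppressor gene.

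The estimated counts summed to between 33047904 and 52199904 per library over the 10 libraries. Values below are CPM, counts per 1000000 counts of a library, after TMM normalization, a scaling by the bulk of genes, and 3 counts, the limit used here for detection, corresponded to 0.0511 to 0.112 CPM in the sgBap1 libraries. Each gene was tested in 1 fit of all 10 libraries with edgeR (quasi-likelihood F test). The p-values were adjusted by the Benjamini-Hochberg method across 17015 genes, and an adjusted p of 0.05 was the threshold. Fold changes are given on the log2 scale with the standard error (SE) of the fit, and "higher", "rose", "lower" and "fell" are used of genes that passed this threshold. An exact permutation test of 3 livers against 2 cannot give a p below 0.1, so none was used.

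Bap1 (ENSMUSG00000021901.10, GRCm38 chr14:31251450-31259944, + strand) was read first as a check of the labels. It stood at 17.5 and 19.5 CPM in sgBap1-Veh and 16.99, 21.8 and 19.1 CPM in sgBap1-CCl4 livers, and at 34.8 and 34.8 CPM in NTC-Veh and 30.1, 31.5 and 29.5 CPM in NTC-CCl4 livers. Every sgBap1 library lay below every NTC library, and within the sgBap1 livers the level did not pass the test between treatments (log2 fold change 0.06 ± 0.11, adjusted p = 0.648).

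Hepatocyte markers were present in all 5 libraries. Albumin (Alb) read 84217 and 88046 CPM with vehicle and 69949, 55036 and 68265 CPM after CCl4, and Hnf4a, a master regulator of hepatocyte identity, 512 and 544 CPM and 481, 396 and 493 CPM. Neither passed the test (adjusted p = 0.142 and 0.194), while DESeq2's Wald test called Alb lower (adjusted p = 0.00491) and scaling by library size alone turned the Hnf4a difference to 0.26 (adjusted p = 0.0402).

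One library stood apart. sgBap1-CCl4 replicate 2 held fat cell transcripts: adiponectin (Adipoq) read 36.4 CPM there and at most 0.0425 CPM in the other sgBap1 livers, the lipid droplet protein Plin1 34.5 CPM against 0, and adipsin (Cfd) 144 CPM against 0. Ucp1, the uncoupling protein of brown fat, read 83.9 CPM in this library and 0 in the other 4. The fatty acid binding protein Fabp4, which endothelial cells and macrophages also make, read 256 CPM against 5.65 to 13.8 CPM. Of the 21 fat cell markers in the table, 18 were highest in this library among the 5, and 11 of them exceeded the next library by more than 10-fold. It also held 49 tested genes at more than 5-fold the level of every other sgBap1 library, against 1 and 6 in the other CCl4 livers and 12 and 24 in the vehicle livers. Where leaving this library out changed a single gene's call given below, or moved its given fold change by more than 1.5-fold, the value without it is stated. List counts without it are given for some lists only. Markers of pancreas and skeletal muscle were at or near 0 in all 5 livers, where Prss1 was at 0, Prss2 at 0.0269 CPM or less and Ckm at 0.0514 CPM or less. Cela1, on the pancreas list but also made elsewhere, read 10.9 and 10.6 CPM with vehicle and 4.07, 2.996 and 5.14 CPM after CCl4.

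**Figure D1:**
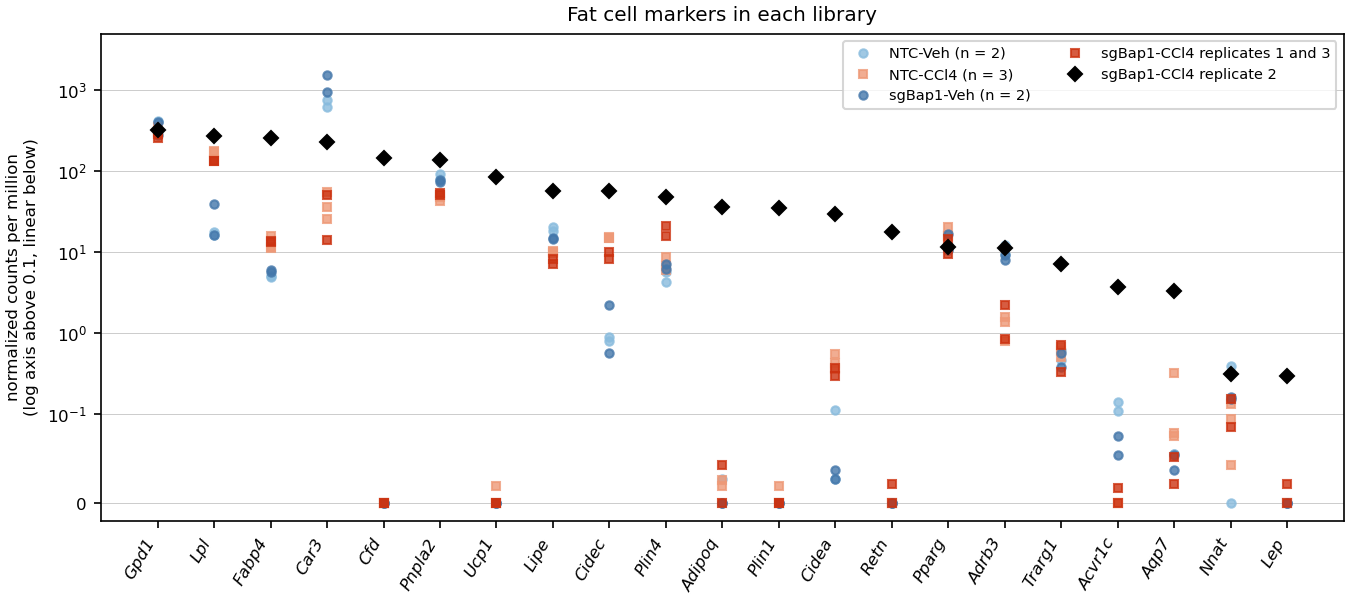
Fat cell markers (21 genes, x axis) in each of the 10 libraries, in normalized CPM on an axis that is logarithmic above 0.1 and linear below. The black diamonds are sgBap1-CCl4 replicate 2, where Adipoq, Plin1, Cfd, Ucp1 and Retn lie far above the other libraries, which are at or near 0.

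CCl4 changed most of the expressed transcriptome in sgBap1 livers, with rises and falls of similar number. Of 17015 tested genes, 9700 (57.0%) passed the threshold, 4942 (29.0%) of them higher and 4758 (28.0%) lower after CCl4. Changes of more than 2-fold were found for 2583 genes that rose and 2184 that fell, and of more than 8-fold for 609 and 292. The CCl4 and vehicle livers did not overlap for 12280 genes (72.2%). Of the called genes, 330 were at or under 3 counts in every vehicle liver and 69 in every CCl4 liver. The median log2 fold change over all tested genes was 0.04. With scaling by library size alone this median was 0.52 and 78.3% of the changed genes were higher, against 50.9% with TMM (50.6% of all tested genes were called higher and 14.0% lower), so directions below are relative to the bulk of genes, and counts of list members are read against 29.0% higher and 28.0% lower. Without replicate 2, 8855 genes passed (26.6% of tested genes higher and 26.0% lower), and 8651 of the 9700 calls were found again in the same direction with none reversed. In a principal component analysis of the 5 libraries the first component separated CCl4 from vehicle and held 81.6% of the variance.

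Gpnmb and Mmp12 led the 12 largest rises among called genes that averaged 100 counts or more over the 5 sgBap1 libraries. Gpnmb, a glycoprotein of lipid-laden and scar-associated macrophages (ENSMUSG00000029816.10, chr6:49036546-49070929, + strand), read 0.296 and 0.1497 CPM with vehicle and 91.3, 112 and 57.3 CPM after CCl4. It was almost undetected in both vehicle livers and the difference was 368-fold (log2 8.52 ± 0.55, adjusted p = 5.88e-06). Mmp12, the macrophage elastase (chr9:7344381-7369499, + strand), went from 0.619 and 0.636 CPM to 124, 151 and 142 CPM. The 3 CCl4 livers lay close together, far above the vehicle livers (221-fold, adjusted p = 3.07e-07). Thbs1, which encodes the TGF-beta activating matrix protein thrombospondin, rose from 1.24 and 1.65 CPM to 152, 175 and 90.7 CPM, 97.6-fold. Tenascin C (Tnc), a matrix protein of wounds, rose from 0.942 and 0.823 CPM to 60.3, 92.4 and 47.5 CPM, 74.8-fold. Adamts4, a protease that cuts proteoglycans, rose 79.1-fold from 0.161 and 0.1497 CPM, near the limit of 3 counts. F13a1, the A chain of the clot-stabilising factor XIII that monocytes make, rose 58.6-fold. The naming rule took only genes whose groups do not overlap, and all 12 passed without replicate 2. Without sgBap1-Veh replicate 1 the log2 fold change of Gpnmb was 9.16, and that of F13a1 moved from 5.87 to 6.66.

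Cell cycle genes made up a further share of these 12. Cdkn3, a phosphatase of cyclin-dependent kinases, stood at 0.135 and 0.187 CPM with vehicle and 14.5, 23.8 and 16.5 CPM after CCl4, 114-fold higher. Ccnb1 (cyclin B1) rose 58.1-fold and Cdc20, the activator of the anaphase-promoting complex, 55.5-fold. The remaining 3 were Akr1c18, a steroid dehydrogenase (0.108 and 0.1497 CPM to 14.4, 15.7 and 12.9 CPM), Emp1, an epithelial membrane protein (52.8-fold), and Gsta1, a glutathione transferase (62.1-fold). Gsta1 shares 90.5% of its 50-base stretches with other genes, so its count may hold reads of its near copies.

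Cyp7a1 led the 12 largest falls. Cyp7a1, the rate-limiting enzyme of bile acid synthesis (ENSMUSG00000028240.2, chr4:6265612-6275633, - strand), stood at 155 and 407 CPM with vehicle and at 1.005, 0.377 and 0.935 CPM after CCl4. The vehicle livers differed from each other by more than 2-fold, yet every CCl4 liver was far below both (365-fold lower, log2 -8.51 ± 0.83, adjusted p = 8.48e-05). Slc1a2, a glutamate transporter of the innermost pericentral hepatocytes (chr2:102658659-102790784, + strand), fell from 246 and 206 CPM to 0.902, 0.8901 and 1.02 CPM. This was the smallest adjusted p of the comparison (6.70e-09, 241-fold lower). Hamp2, a hepcidin gene, fell from 694 and 413 CPM to 1.703, 1.87 and 2.7 CPM, 266-fold. Sult2a1 and Sult2a2, which sulphate steroids and bile acids, were 298-fold and 170.0-fold lower, but they share 33.2% and 62.1% of their 50-base stretches with other genes. Their log2 fold changes moved from -8.22 and -7.41 to -9.53 and -8.01 without sgBap1-CCl4 replicate 2, and that of Cyp7a1 to -7.65 without sgBap1-Veh replicate 2.

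Bhmt, which remethylates homocysteine, was 62.5-fold lower, and Upp2, a uridine phosphorylase, 54.1-fold. Serpina6, the plasma carrier of glucocorticoids, fell from 817 and 867 CPM to 14.3, 9.89 and 32.4 CPM. Mup10 (major urinary protein, 60.7-fold lower) and Cyp3a41a (51.2-fold lower) share 76.5% and 98.6% of their 50-base stretches with paralogs, and Cyp3a41a read 119 CPM in 1 CCl4 liver against 12.4 and 6.86 CPM in the other two. Without that liver, sgBap1-CCl4 replicate 3, its log2 fold change moved from -5.68 to -7.94 and that of Serpina6 from -5.48 to -6.13, and without sgBap1-Veh replicate 2 that of Mup10 from -5.92 to -5.05.

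**Figure D2:**
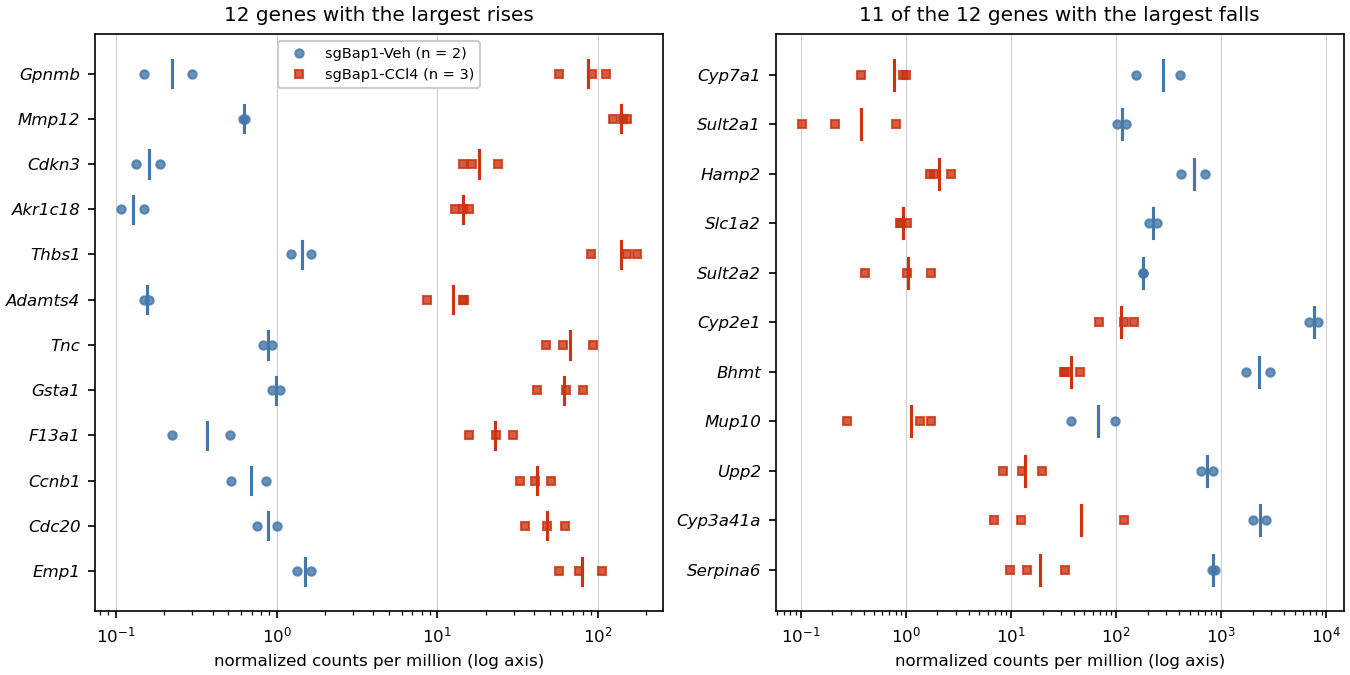
The 12 genes with the largest rises (left) and 11 of the 12 with the largest falls (right) by the naming rule. Each point is 1 liver in normalized CPM on a log axis, and the vertical bars are group means. The CCl4 and vehicle points do not overlap for any of the 23 genes shown, which the rule required.

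The enzymes that activate CCl4 and the pericentral programme around them fell nearly as a whole. Of 26 tested genes of this list, 24 fell and none rose, with a median log2 fold change of -2.32, and their summed level went from 19812 and 21914 CPM to 2915, 2799 and 3854 CPM. Cyp2e1, the main CCl4-activating enzyme (ENSMUSG00000025479.9, chr7:140763739-140774987, + strand), read 6799 and 8321 CPM with vehicle and 69.4, 118 and 147 CPM after CCl4. All 3 CCl4 livers had lost nearly all of it (67.7-fold lower, log2 -6.08 ± 0.35, adjusted p = 1.12e-06). Glul, the glutamine synthetase of the cells that touch the central vein, fell from 1325 and 1460.4 CPM to 46.9, 182 and 77.4 CPM, with replicate 2 the highest of the CCl4 livers (log2 -3.77, and -4.49 without it). Cyp2a5, which shares 37.0% of its 50-base stretches with other genes, was lower by 15.8-fold and Cyp1a2 by 2.31-fold. The Cyp1a2 call was lost without sgBap1-Veh replicate 1 (log2 fold change -0.94, adjusted p = 0.0668) and with scaling by library size alone (-0.72, adjusted p = 0.0707). In bulk tissue, fewer cells of a type and less RNA per cell cannot be told apart, here and in every cell type list below.

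Other drug-metabolising enzymes fell with them. Of 28 tested cytochromes P450, 26 fell and none rose (median -2.12). Cyp2b9 fell from 476 and 427 CPM to 101, 57.96 and 99.2 CPM and Cyp2c38 from 152 and 168 CPM to 7.12, 4.25 and 13.2 CPM. Cyp3a16 read 33.4 and 13.02 CPM with vehicle and was at or under 3 counts in every CCl4 liver. Cyp1a1, the dioxin-inducible form, was low throughout (1.08 and 1.05 CPM and 0.426, 0.6505 and 0.425 CPM, adjusted p = 0.151). Of 30 conjugating enzymes of phase II, 22 fell and 1 rose (median -1.35), among them Sult2a8, a bile acid sulphotransferase, from 396 and 641 CPM to 15.8, 4.896 and 29.7 CPM, and Gstt3 from 164 and 68.98 CPM to 16.8, 16.8 and 10.5 CPM.

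Periportal hepatocyte genes, which lie on the far side of the lobule from the injury, fell as well. Of 25 tested, 22 fell and 1 rose, with a median of -1.43. Asl, which splits argininosuccinate in the urea cycle, fell from 744 and 671 CPM to 84.05, 60.5 and 86.4 CPM (9.19-fold, adjusted p = 5.01e-07). Cps1, the entry enzyme of that cycle, fell from 5139 and 3392 CPM to 1961, 1622 and 1247 CPM, a smaller change of 2.65-fold. Otc fell 6.405-fold, Cyp2f2 8.59-fold, Hal, which breaks down histidine, 4.99-fold, and G6pc, the last step of glucose release, 6.13-fold. Without sgBap1-Veh replicate 1 the log2 fold change of Hal moved from -2.32 to -1.64. The pericentral list had the lower median of these zonal lists, and that difference was not tested.

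Most secreted plasma proteins fell. Of 29 tested, 19 fell and 2 rose (median -1.02). Transthyretin (Ttr) and Apoa1 did not pass the test (adjusted p = 0.0722 and 0.0793), while Apoa2 fell from 5845 and 7040.4 CPM to 1227, 831 and 1684 CPM. DESeq2's Wald test and the fit without sgBap1-CCl4 replicate 3 did call Ttr (adjusted p = 0.0223 and 0.0439) and Apoa1 (adjusted p = 0.023 and 0.0141). The clotting factor F7 fell 3.44-fold and histidine-rich glycoprotein (Hrg) 3.19-fold. Among 22 hepatocyte transcription factors, 15 fell and none rose (median -0.67), and 8 fell and 4 rose with scaling by library size alone. Nr1i3, the xenobiotic receptor CAR, fell from 399 and 518 CPM to 59.6, 43.96 and 81.8 CPM. The bile acid receptor Nr1h4 fell 3.77-fold, Cebpa 3.78-fold and Klf15, a regulator of amino acid breakdown, 2.84-fold.

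Bile acid, lipid and sterol genes were lower in 4 lists. Of 28 tested genes of bile acid synthesis and transport, 21 fell and 1 rose (median -1.94). Beside Cyp7a1, the steroid reductase Akr1d1 fell from 314 and 289.8 CPM to 11.4, 8.47 and 7.69 CPM (32.8-fold), the bile acid importer Slc10a1 from 926 and 1041 CPM to 79.98, 44.8 and 87.4 CPM and Cyp27a1 6.12-fold. Cyp8b1 differed 17-fold between the vehicle livers (19.3 and 334 CPM), and its call (adjusted p = 0.036) was lost without sgBap1-Veh replicate 2 (adjusted p = 0.475), without sgBap1-CCl4 replicate 1 (0.0893) and without sgBap1-CCl4 replicate 2 (0.125).

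Fatty acid synthesis fell in 18 of 20 tested genes (median -1.89). Srebf1, whose product switches on the lipogenic enzymes, fell from 627 and 665 CPM to 159, 137 and 154 CPM, and Acly, which makes cytosolic acetyl-CoA, from 947 and 994 CPM to 220.0, 227 and 231 CPM. Groups were tight and far apart for both (4.31-fold and 4.29-fold lower). Fatty acid synthase (Fasn) read 2560.4 and 2352 CPM with vehicle and 183, 706 and 164 CPM after CCl4, and Thrsp, a lipogenic regulator, 1071 and 965 CPM and 6.95, 66.4 and 9.54 CPM. Replicate 2, the library with fat cell transcripts, was the highest CCl4 liver for both, and without it the log2 fold changes moved from -2.81 to -3.83 and from -5.20 to -6.95. Fat cells also express these genes, and the part of that library's fat transcripts in these values was not tested.

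In fatty acid oxidation and ketogenesis 20 of 29 genes fell and 2 rose (median -0.70), and 12 fell and 5 rose with scaling by library size alone (median -0.24). Cpt1a, the gate of mitochondrial fatty acid import, fell from 481 and 677 CPM to 322, 264 and 370.4 CPM. Acot3, a peroxisomal thioesterase, fell 20.5-fold, and Pdk4, which shuts off pyruvate oxidation, rose from 6.27 and 3.59 CPM to 40.03, 86.6 and 27.8 CPM. The log2 fold change of Pdk4 was 3.37, and 2.77 without replicate 2. Cholesterol synthesis fell in 20 of 24 genes (median -1.46), 17 without replicate 2, and 11 fell and 1 rose with scaling by library size alone. Without sgBap1-Veh replicate 2, 10 of the 24 fell, and without sgBap1-CCl4 replicate 1, 13. Insig1, which holds the SREBP factors back in the endoplasmic reticulum, fell from 846 and 711 CPM to 173, 123 and 241 CPM. Srebf2, the factor that drives the pathway, differed by -0.14 (adjusted p = 0.362), and by 0.34 (adjusted p = 0.0259) with scaling by library size alone.

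Energy and protein synthesis machinery moved in opposite directions. All 30 tested nuclear genes of the mitochondrial respiratory chain fell, by a narrow range around a median of -0.83, and 20 of the 30 fell with scaling by library size alone. Sdhb, the iron-sulphur subunit of complex II, fell from 206 and 198 CPM to 68.8, 82.8 and 72.1 CPM, and Ndufb10 of complex I from 122 and 136 CPM to 52.4, 50.5 and 62.6 CPM. Transcripts of the mitochondrial genome took 4.56% to 4.88% of counts in the CCl4 livers and 5.34% to 5.77% in the vehicle livers. Of 32 cytosolic ribosomal protein genes, 25 rose and 1 fell, with a median of 0.46. Rpl12 rose most, from 109 and 126 CPM to 262, 288 and 262 CPM. Many ribosomal protein genes have processed pseudogenes that share reads with them.

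**Figure D3:**
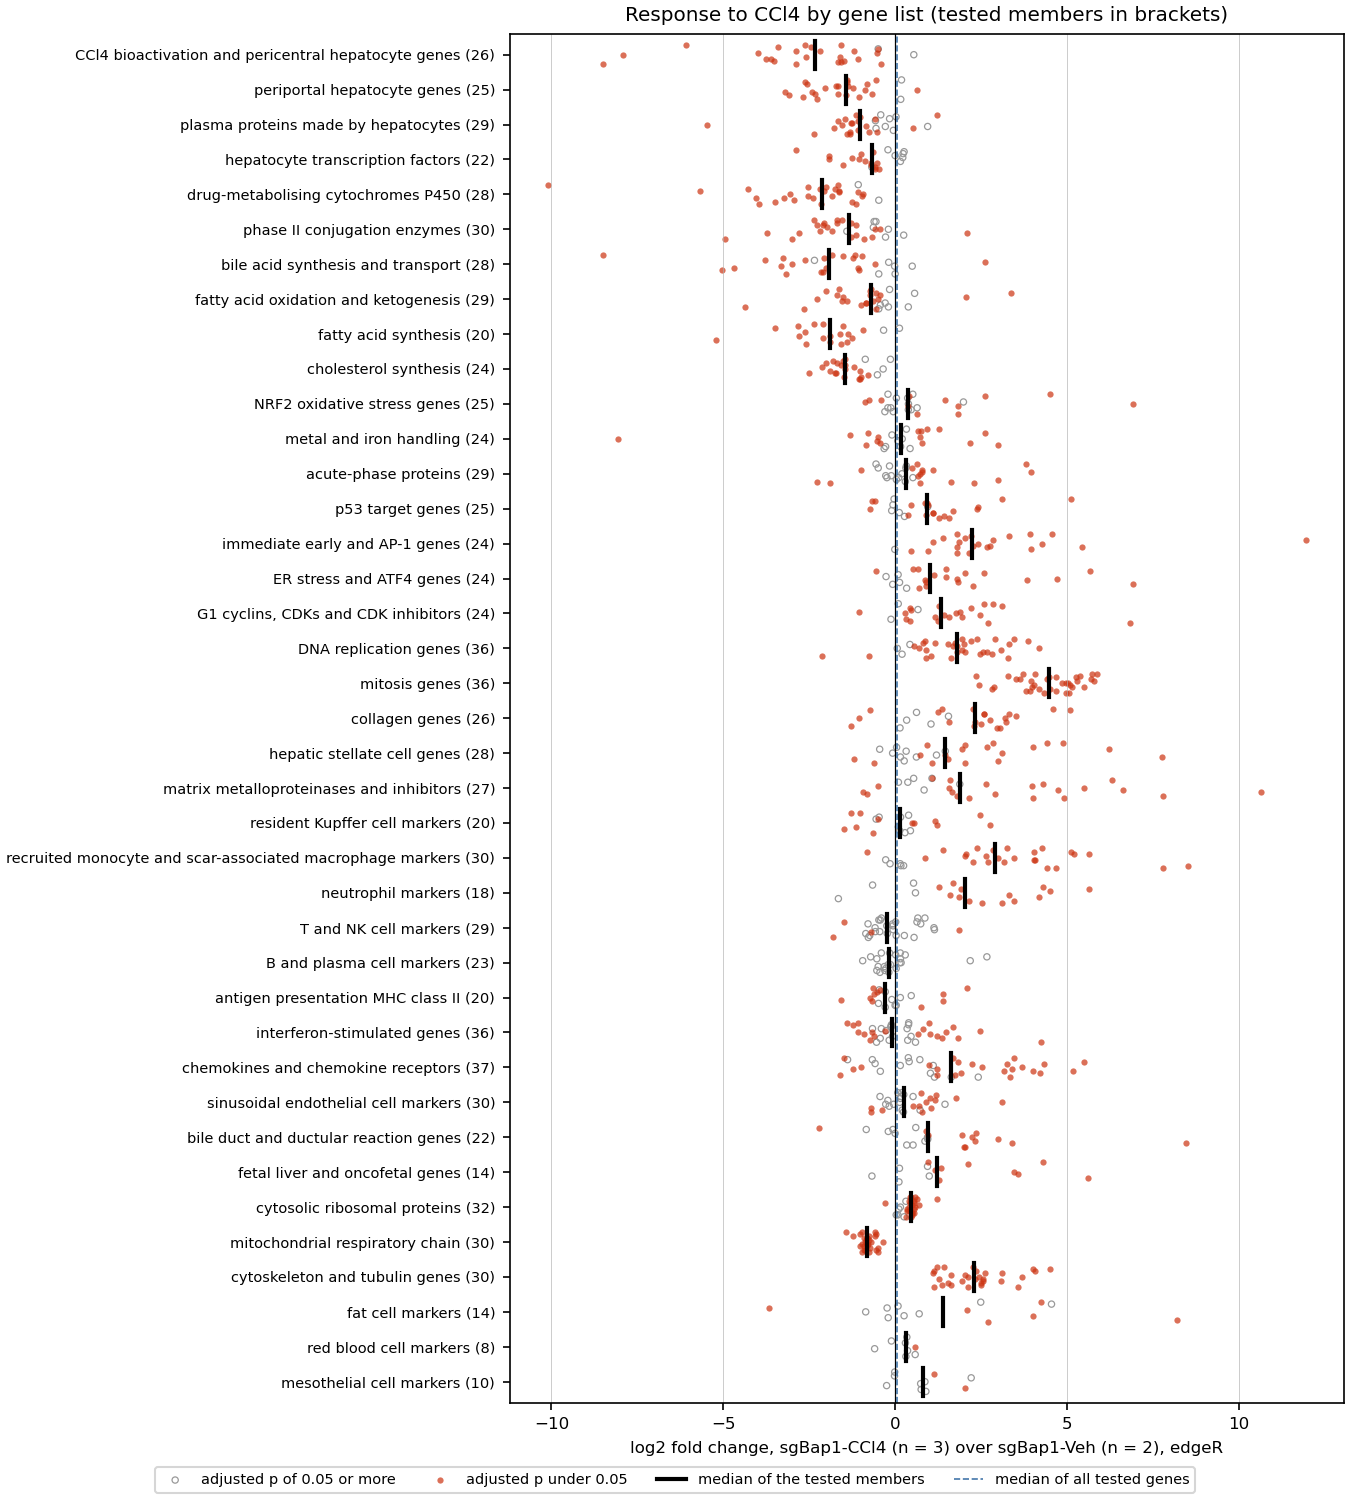
Log2 fold changes (x axis) of the tested members of 39 gene lists (y axis) between 3 sgBap1-CCl4 and 2 sgBap1-Veh livers. Filled points passed an adjusted p of 0.05, black bars are list medians and the dashed line is the median of all tested genes (0.04). Mitosis genes stand furthest to the right, with a median of 4.48, and the pericentral list furthest to the left, with a median of -2.32.

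Immediate early genes rose nearly as a whole. Of 24 immediate early and AP-1 genes, 23 rose and none fell (median 2.24). Fos rose from 2.13 and 1.01 CPM to 26.1, 26.5 and 21.1 CPM and Atf3, a stress-induced repressor, from 2.77 and 4.72 CPM to 86.5, 81.7 and 45.96 CPM. Fosl1, an AP-1 subunit at 0 in both vehicle livers (0 and 0 CPM), reached 12.6, 12.98 and 8.03 CPM after CCl4, at least 116-fold higher on the limit of 3 counts per library. Ier3 rose 23.9-fold.

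Genes of the unfolded protein and amino acid responses rose in 18 of 24 cases and 1 fell (median 1.01). Ddit3 (CHOP) rose from 5.81 and 6.03 CPM to 17.2, 17.1 and 15.1 CPM. The serine synthesis genes Phgdh and Psat1 rose 50.4-fold and 26.1-fold, and Asns, which makes asparagine, 14.1-fold. Phgdh shares 47.8% of its 50-base stretches with other genes. Slc7a11, the cystine importer of glutathione synthesis, rose from 0.135 and 0.0749 CPM to 14.4, 17.2 and 9.204 CPM (121-fold). The value of sgBap1-Veh replicate 2 was under the 3-count limit of that library (0.112 CPM), so the size of this fold is uncertain. Atf4 itself did not pass the test (101 and 93.1 CPM and 110.5, 98.1 and 109 CPM, adjusted p = 0.26), but was called higher with scaling by library size alone (log2 0.60).

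Of 25 tested antioxidant genes under NRF2, the oxidative stress factor, 9 rose and 3 fell (median 0.39). With scaling by library size alone 17 rose and 1 fell, with DESeq2's Wald test 12 and 3, with the 5 sgBap1 libraries alone 13 and 3, and without sgBap1-Veh replicate 1, 5 and 3. Nqo1, its standard reporter, read 11.8 and 12.8 CPM with vehicle and 13.8, 22.9 and 15.7 CPM after CCl4 (adjusted p = 0.161). It was called higher with scaling by library size alone (adjusted p = 0.0197) and with the replicate block (log2 0.66, adjusted p = 0.0268). Gclm, the modifier subunit of glutathione synthesis, fell 1.701-fold, while Abcc4, an export pump, rose from 7.24 and 4.49 CPM to 31.1, 47.2 and 30.3 CPM. Slc7a11, given above, is also on this list and had its largest rise (log2 6.92).

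Metal and iron genes split, with 9 of 24 higher and 7 lower, shares near those of all tested genes, and 14 higher and 3 lower with scaling by library size alone. The zinc-binding metallothionein Mt2 rose from 70.1 and 100.2 CPM to 383, 351 and 427 CPM and Mt1 from 163 and 257 CPM to 482, 476 and 576 CPM, with no overlap between groups. Lcn2, which binds bacterial iron carriers, rose from 31.2 and 46.7 CPM to 279, 352 and 295 CPM, and Id1, a target of BMP signalling, 6.18-fold. Of 29 acute-phase genes 13 rose and 3 fell, without sgBap1-Veh replicate 1, 5 rose and 4 fell, and with scaling by library size alone 19 rose and 3 fell. Saa1 and Saa2, the classic serum amyloids, did not pass (459 and 948 CPM and 283, 606 and 545 CPM for Saa1, adjusted p = 0.416). The endotoxin receptor Cd14 rose 15.3-fold and the interleukin-1 antagonist Il1rn 13.95-fold.

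Targets of p53 rose in 16 of 25 cases and fell in 3 (median 0.93). Cdkn1a, the p21 cell cycle inhibitor, went from 10.4 and 16.5 CPM to 114, 118 and 112 CPM. The CCl4 livers lay within a few CPM of each other (8.56-fold higher, adjusted p = 5.83e-05). Mdm2, the p53 ubiquitin ligase, rose from 36.6 and 39.7 CPM to 85.8, 82.8 and 75.8 CPM, and Tnfrsf10b, a death receptor, 5.195-fold. Ckap2, on this list but also a spindle protein, rose 34.96-fold. Ccng1 differed by -0.06 (adjusted p = 0.598) and by 0.42 (adjusted p = 0.00854) with scaling by library size alone.

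Genes of cell division rose as a whole. All 36 tested mitosis genes rose, with a median log2 fold change of 4.48, and their summed level went from 52.9 and 44.8 CPM to 862, 1111 and 765 CPM. Cyclin B1 (Ccnb1, ENSMUSG00000041431.16, chr13:100778650-100786570, - strand) read 0.861 and 0.524 CPM with vehicle and 40.6, 51.3 and 32.6 CPM after CCl4, and Cdk1, its kinase partner, 1.86 and 1.09 CPM and 30.3, 36.4 and 30.1 CPM. Both sets of livers were far apart (adjusted p = 6.03e-06 and 2.15e-06). Ccnb2 rose 45.3-fold, Hmmr, a spindle protein, 51.4-fold and Cdc25c, which activates Cdk1, 52.7-fold. All 36 also rose without replicate 2 (median 4.32).

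Genes of DNA replication rose in 31 of 36 cases and fell in 2 (median 1.80). Mcm2, of the replicative helicase, rose from 4.92 and 3.14 CPM to 29.3, 28.6 and 33.6 CPM, Uhrf1, which carries methylation to new DNA, from 2.21 and 1.09 CPM to 19.7, 24.9 and 28.9 CPM and Cdc6, a licensing factor, 18.3-fold. Of 24 G1 cyclins, kinases and inhibitors 20 rose and 1 fell. Ccne1 (cyclin E1) rose from 1.16 and 0.973 CPM to 6.08, 7.04 and 7.99 CPM and Myc from 2.96 and 4.72 CPM to 28.9, 30.4 and 23.2 CPM. Cyclin D1 (Ccnd1), the usual first cyclin of liver regrowth, was already high with vehicle (304 and 271 CPM) and read 321, 295 and 301 CPM after CCl4 (adjusted p = 0.63). It was called higher with scaling by library size alone (log2 0.57, adjusted p = 0.00594).

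Mitotic genes share promoter elements that the list did not use, the cell cycle homology region (CHR), bound by the MuvB complexes, and the CCAAT box, bound by NF-Y. Upstream stretches are shown for 3 genes of the mitosis list that rose together, ending at the outermost annotated start, 5′ to 3′ on the gene's own strand, from the RefSeq promoter table (GRCm38.p6), with matches to CHR, CCAAT and E2F in capitals.
Ccnb1 (chr13:100786571-100786736, - strand): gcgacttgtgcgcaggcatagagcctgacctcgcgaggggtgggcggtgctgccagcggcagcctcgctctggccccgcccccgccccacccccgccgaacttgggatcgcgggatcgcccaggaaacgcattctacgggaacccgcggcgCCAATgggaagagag
Ccnb2 (chr9:70421555-70421804, - strand): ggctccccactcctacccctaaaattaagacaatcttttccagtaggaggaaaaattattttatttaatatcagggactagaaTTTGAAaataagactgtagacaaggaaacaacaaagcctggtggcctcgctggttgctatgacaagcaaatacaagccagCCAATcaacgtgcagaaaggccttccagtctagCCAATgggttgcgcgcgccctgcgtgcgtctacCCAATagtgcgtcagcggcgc
Cdk1 (chr10:69352939-69353162, - strand): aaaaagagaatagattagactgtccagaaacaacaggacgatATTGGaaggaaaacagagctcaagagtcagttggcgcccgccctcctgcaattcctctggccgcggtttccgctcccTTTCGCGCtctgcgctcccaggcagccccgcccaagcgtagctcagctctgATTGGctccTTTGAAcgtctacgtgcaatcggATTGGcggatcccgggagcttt
The Cdk1 stretch holds a CHR match close to a CCAAT box, which reads ATTGG on this strand, and an E2F match further upstream. The Ccnb2 stretch holds 3 CCAAT boxes and a CHR match far upstream of them, and the Ccnb1 stretch 1 CCAAT box. Motifs were searched on both strands in the 250 bases before the RefSeq start, CHR as TTTGAA or TTCGAA, the CCAAT box as CCAAT, and E2F as TTTCCCGC, TTTGGCGC, TTTCGCGC or TTTGCCGC, and none of these strings contains another. Of the 29 mitosis genes with an entry, 11 (37.9%) held a CHR and 22 (75.9%) a CCAAT box, against 17.1% and 33.8% of the 32851 promoters in the table. Among the 11950 tested genes with an entry the shares were 15.5% and 40.2%. Both motifs stood in 34.5% of the mitosis genes, 6.02% of all promoters and 6.01% of the tested genes. An E2F match stood in 9 of 31 (29.0%) genes of the replication list, 1.86% of all promoters and 3.59% of the tested genes. The antioxidant response element TGACNNNGC stood in 7 of 22 (31.8%) of the NRF2 list, 10.2% of all promoters and 13.7% of the tested genes. A gene counted as holding a motif if any of its listed promoters did. A match is only a string of letters and does not show binding.

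Matrix genes rose, and in several of them replicate 2 was far above the other CCl4 livers. Of 26 tested collagen genes, 18 rose and 3 fell (median 2.31, and 1.70 without replicate 2 with the same counts). Col1a1, the main chain of scar collagen, read 11.3 and 5.24 CPM with vehicle and 135, 402 and 71.3 CPM after CCl4. The log2 fold change was 4.60 ± 0.89, and 3.62 (adjusted p = 0.00271) without replicate 2. Col3a1 read 36.8 and 23.7 CPM and 194, 584 and 126 CPM, and Lox, which crosslinks collagen, 0.269 and 0.262 CPM and 5.89, 17.3 and 4.08 CPM. Their log2 fold changes were 3.31 and 5.09, and 2.40 and 4.22 without replicate 2. Without sgBap1-Veh replicate 1 that of Col1a1 was 5.28. Loxl2 rose 11.3-fold. The 3 genes that fell, named after their values were seen, were Col18a1, which hepatocytes make (1092 and 1063 CPM to 483, 344 and 509 CPM), Col27a1 and Col5a3. Without sgBap1-Veh replicate 2 the calls of Col27a1 and Col5a3 were lost (adjusted p = 0.0839 and 0.478), and that of Col5a3 also without sgBap1-CCl4 replicate 1 (0.083) or 3 (0.0918). The high collagen values stand in the library with fat cell transcripts, and the part of that tissue in them was not tested.

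Stellate cell genes rose in 17 of 28 cases and fell in 2 (median 1.45, and 1.02 without replicate 2). Genes of the activated state led. Acta2, the actin of myofibroblasts, rose from 1.67 and 2.17 CPM to 42.7, 95.5 and 31.1 CPM, and Tagln, an actin-binding protein of contractile cells, from 3.82 and 4.38 CPM to 74.4, 118 and 67.6 CPM. Both passed without replicate 2 (log2 4.28 and 4.12). Lrat, the enzyme of vitamin A storage that marks stellate cells at rest, read 23.8 and 19.99 CPM and 22.7, 21.9 and 28.6 CPM (adjusted p = 0.452, but called higher with scaling by library size alone, log2 0.62). Desmin (Des) rose 3.87-fold.

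Among matrix proteases and their inhibitors 18 of 27 rose and 3 fell (median 1.88). Beside Mmp12 and Adamts4, Mmp3 (stromelysin) was undetected with vehicle (0 and 0 CPM) and read 1.75, 10.03 and 1.81 CPM after CCl4, at least 46.9-fold higher on the limit of 3 counts per library. Replicate 2 was the highest, and without it the bound was 18.4-fold. Mmp2, a gelatinase of stellate cells, read 2.75 and 2.36 CPM and 2.54, 11.7 and 1.81 CPM and did not pass (log2 1.07, adjusted p = 0.311, and -0.23 without replicate 2).

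Cytoskeletal genes rose without exception, 30 of 30 (median 2.29), and 29 of 30 without replicate 2. Tubb6 rose from 7.05 and 4.57 CPM to 126, 167 and 106 CPM and Anxa2, a membrane-binding annexin, from 13.5 and 13.1 CPM to 202, 260.0 and 184 CPM. Tuba1a, Tuba1b and Tuba1c share most of their 50-base stretches with other genes (72.9%, 66.7% and 52.7%), so their separate values are uncertain.

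Markers of monocyte-derived macrophages rose, while those of resident Kupffer cells split. Of 30 monocyte and scar-associated macrophage genes 24 rose and 1 fell (median 2.91). The 1 that fell was Arg1, named after its value was seen, which hepatocytes also express as an enzyme of the urea cycle. Ccr2, the receptor that brings monocytes from blood, rose from 3.63 and 3.59 CPM to 32.2, 37.6 and 33.7 CPM (9.54-fold, adjusted p = 3.07e-07), Ly6c2 from 1.53 and 1.72 CPM to 8.12, 8.61 and 6.84 CPM and Lyz2, lysozyme, from 112 and 90.8 CPM to 409, 501 and 349 CPM. Chil3 and Clec4d, genes of inflammatory monocytes, rose 36.6-fold and 50.3-fold.

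Of 20 Kupffer cell markers 6 rose and 6 fell (median 0.14), 4 and 4 without replicate 2, and 9 and 1 with scaling by library size alone, so their counts with TMM lay near the shares of all genes. Clec4f, the marker most specific to these cells, fell from 169.8 and 116 CPM to 47.1, 63.03 and 65.4 CPM (2.45-fold, adjusted p = 0.00155). Timd4, a receptor for dying cells on long-lived Kupffer cells, read 14.4 and 10.4 CPM and 4.29, 6.76 and 5.99 CPM. Its call (adjusted p = 0.0366) was lost whichever sgBap1 library was left out, with adjusted p from 0.0546 without sgBap1-CCl4 replicate 2 to 0.213 without sgBap1-Veh replicate 1. Marco, a scavenger receptor, rose from 35.8 and 19.7 CPM to 150.2, 251 and 165 CPM, a call lost without sgBap1-Veh replicate 2 (adjusted p = 0.0697), and Cd68, found in all macrophages, rose from 19.5 and 12.4 CPM to 94.6, 95.3 and 77.2 CPM.

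Neutrophil genes rose in 14 of 18 cases and none fell (median 2.02). Clec4d, given above among monocyte genes, is also on this list. The calprotectin genes S100a8 and S100a9 rose 3.22-fold and 3.596-fold from low levels (2.34 and 1.95 CPM and 8.16, 8.05 and 4.61 CPM for S100a8). Ly6g, the defining surface marker, was at or under 0.154 CPM in every liver and was not tested. Prtn3, a granule protease, rose from 0.484 and 0.337 CPM to 9.23, 12.1 and 7.61 CPM.

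Few lymphocyte markers passed the test. Of 29 T and NK cell genes 1 rose and 3 fell (median -0.23). With scaling by library size alone 7 rose and 2 fell, and the median was 0.24. Without sgBap1-CCl4 replicate 2, 1 of 28 rose and 2 fell. Cd3e, of the T cell receptor complex, read 1.695 and 1.72 CPM with vehicle and 0.885, 1.28 and 1.28 CPM after CCl4 (adjusted p = 0.29). Il7r rose from 1.399 and 1.42 CPM to 5.31, 6.04 and 4.102 CPM and Zap70, a T cell kinase, fell from 12 and 17.8 CPM to 4.38, 3.18 and 5.29 CPM. None of 23 B and plasma cell genes (0 of 23) passed with edgeR's quasi-likelihood test, where 3 had an unadjusted p under 0.05. With DESeq2's Wald test 3 passed. Without sgBap1-CCl4 replicate 2, 1 rose and 1 fell with edgeR.

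Genes of antigen presentation were called in both directions. Among 20 genes of MHC class II presentation and dendritic cells 4 rose and 7 fell, beside 29.0% and 28.0% of all tested genes (median -0.29). Without sgBap1-CCl4 replicate 2, 3 rose and 9 fell. The class II chains H2-Aa, H2-Ab1 and H2-Eb1 read 69.9 and 64.1, 61.2 and 50.2 and 52.1 and 49.9 CPM with vehicle. After CCl4 they read 35.8, 50.7 and 43.02 CPM, 28.7, 41.1 and 33.99 CPM and 26.9, 40.3 and 33.2 CPM. Every CCl4 liver lay below both vehicle livers for all 3 genes (log2 -0.63 ± 0.19, -0.69 ± 0.17 and -0.61 ± 0.18). These calls depended on the vehicle livers and the scaling. Without sgBap1-Veh replicate 1 the adjusted p was 0.0982, 0.0701 and 0.0794, and for H2-Eb1 it was 0.0548 without sgBap1-Veh replicate 2. Without sgBap1-Veh replicate 1 the list had 3 higher and 0 lower, without sgBap1-Veh replicate 2 it had 3 and 4, and with scaling by library size alone 5 and 0. The H2-Aa call was also lost without sgBap1-CCl4 replicate 1 (adjusted p = 0.0521). The protease Ctss, which cuts the invariant chain of class II and which macrophages make, rose from 60.3 and 50.2 CPM to 133, 159.5 and 145 CPM, and the costimulator Cd80 4.24-fold.

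Of 36 interferon-stimulated genes 11 rose and 9 fell, shares near those of all tested genes (median -0.09). With scaling by library size alone 22 rose and 3 fell (median 0.39). Without sgBap1-CCl4 replicate 2, 12 rose and 6 fell. Without sgBap1-Veh replicate 2, 10 rose and 3 fell. Rsad2 (viperin) rose from 10.9 and 15.5 CPM to 378, 249 and 119 CPM and Oasl1 from 15.4 and 18.6 CPM to 126, 95.7 and 62.3 CPM, and in both the order of the CCl4 livers was the same. Isg15 rose 3.24-fold and the T cell attractant Cxcl10 3.55-fold. Among the 9 that fell, Gbp4, Psmb9 and Irf1 were named after their values were seen. Each also passed whichever sgBap1-CCl4 library was left out. Gbp4 fell from 14.3 and 18.3 CPM to 5.398, 6.37 and 6.63 CPM and Psmb9, a subunit of the immunoproteasome, from 32.6 and 41.4 CPM to 16.6, 16.5 and 19.7 CPM, while the Irf1 call was lost with scaling by library size alone. Ifit1, Ifit2 and Ifit3 did not pass (adjusted p = 0.21, 0.146 and 0.304), though scaling by library size alone called Ifit1 and Ifit2 higher (adjusted p = 0.00861 and 0.00483).

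Chemokines and their receptors rose in 20 of 37 cases and fell in 4 (median 1.63), and 19 rose and 3 fell without replicate 2 (median 1.10). Ccl2 and Ccl7, which call monocytes, rose from 2.93 and 1.83 CPM to 30.7, 32.8 and 16.4 CPM and from 0.296 and 0.299 CPM to 15.1, 17.3 and 8.25 CPM. Ccr1, a receptor for the inflammatory CC chemokines, rose 35.9-fold, Ccl3 16.1-fold, Ccl4 20.1-fold and Cxcl14 18.7-fold. Without sgBap1-Veh replicate 2 the log2 fold change of Ccl3 moved from 4.01 to 4.63.

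Sinusoidal endothelial markers rose in a share near that of all tested genes, and ductal genes rose in part. Of 30 endothelial markers 11 (36.7%) rose and 3 (10.0%) fell, beside 29.0% and 28.0% of all tested genes (median 0.25). With scaling by library size alone 21 rose and 0 fell (median 0.73). Without sgBap1-CCl4 replicate 2, 9 rose and 1 fell, without sgBap1-Veh replicate 1, 12 and 0, and without sgBap1-Veh replicate 2, 6 and 4. Stab2, a scavenger receptor of these cells, read 50.7 and 39.4 CPM and 39.3, 40.1 and 40.3 CPM (adjusted p = 0.206), Lyve1 rose 3.4-fold and Angpt2, made by activated endothelium, 8.59-fold. Without sgBap1-Veh replicate 2 Stab2 was called lower (log2 -0.34, adjusted p = 0.0313). Of 22 genes of bile ducts and the ductular reaction 11 rose and 1 fell. The duct keratins Krt7 and Krt19 did not pass (adjusted p = 0.433 and 0.309), nor did Epcam (1.29 and 1.46 CPM and 1.77, 1.04 and 1.28 CPM). Among those that rose were genes that hepatocytes or macrophages can also make, Spp1 (osteopontin) from 37.1 and 42.6 CPM to 335, 352 and 260.4 CPM, Krt18 from 169 and 136 CPM to 795, 711 and 826 CPM and Sprr1a, a regeneration-associated protein, from 0.0538 and 0.299 CPM to 58.2, 65.7 and 45.1 CPM.

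Fetal and oncofetal genes rose in 9 of 14 cases and none fell. Alpha-fetoprotein (Afp), the fetal albumin relative, rose from 0.431 and 0.786 CPM to 9.69, 14.5 and 10.7 CPM, Ly6d from 1.67 and 1.796 CPM to 68.8, 120.1 and 66.7 CPM and the glycolytic enzyme Pkm 11.1-fold. Of 8 tested red blood cell genes 1 rose, and of 10 mesothelial genes 2 rose, 1 without replicate 2. The imprinted H19 was low in every liver (0.323 and 0.561 CPM and 0.324, 0.342 and 0.106 CPM, adjusted p = 0.413).

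Most of this response was shared with NTC livers. CCl4 against vehicle gave 9178 changed genes (53.9%) in NTC livers. Of the 9700 genes changed in sgBap1 livers, 7793 (80.3%) also changed in the same direction in NTC livers, which is 84.9% of the NTC calls, and 21 changed in the opposite direction. These comparisons use separate vehicle livers. Across the 17015 genes the log2 fold changes correlated with a Pearson r of 0.83 and a Spearman rho of 0.86, given as a description, since genes are not replicates. The log2 fold change of Cyp2e1 was -5.71 in NTC and -6.08 in sgBap1 livers, and mitosis genes had median log2 fold changes of 5.34 and 4.48.

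The interaction of genotype and CCl4, which tests whether the response differed between sgBap1 and NTC livers, passed for none of 17015 genes (0.0%) with edgeR's quasi-likelihood test. The smallest adjusted p was 0.0694, and 1764 genes (10.4%) had an unadjusted p under 0.05. DESeq2's Wald test called 420 genes, and without sgBap1-CCl4 replicate 2 edgeR called 7. The values below are therefore given with an interaction that did not pass in this test.

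**Figure D4:**
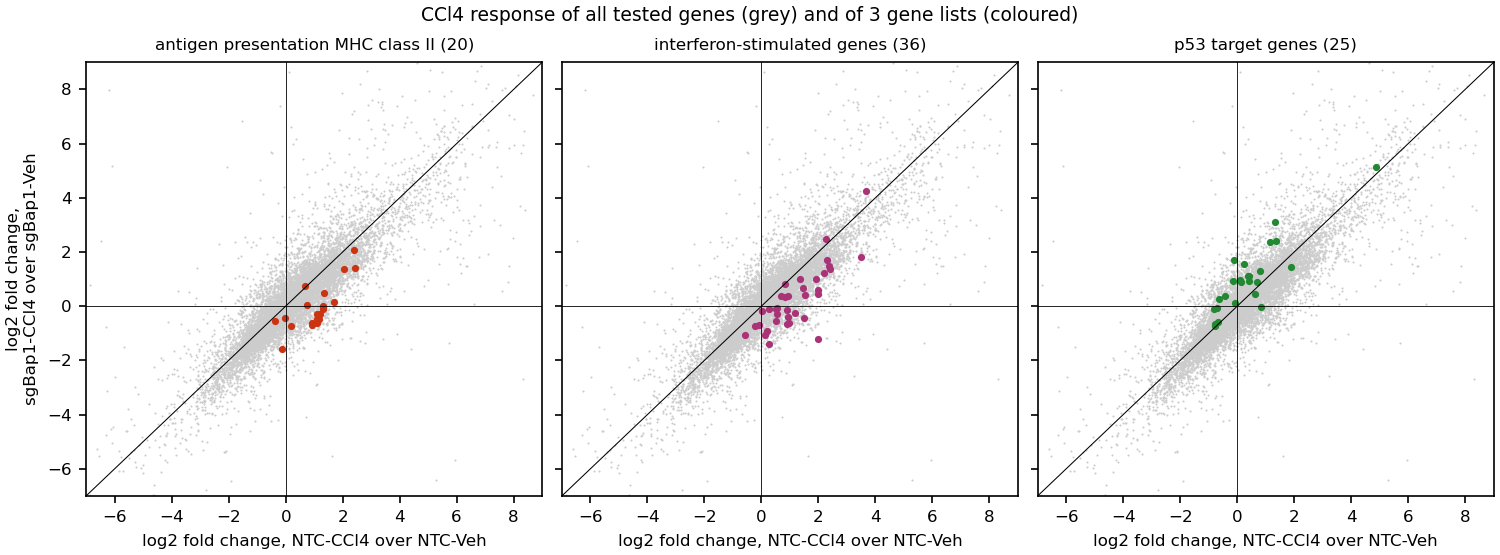
Log2 fold change by CCl4 in sgBap1 livers (y axis) against NTC livers (x axis) for all tested genes (grey, of which 55 lie outside the axes of -7 to 9) and for 3 gene lists, one in each panel (coloured). Points on the diagonal changed equally, and MHC class II and interferon-stimulated genes lie mostly below it, p53 targets mostly above it.

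Several immune and stress lists lay off the diagonal. In NTC livers 27.4% of all tested genes rose and 26.6% fell, and over all tested genes 6.78% had a negative and 3.59% a positive interaction at an unadjusted p under 0.05. For MHC class II presentation, 14 of 20 genes rose and none fell in NTC livers (median 1.09), against 4 and 7 in sgBap1 livers, and 14 of the 20 had an unadjusted interaction p under 0.05, all negative. H2-Aa (ENSMUSG00000036594.15, chr17:34282744-34287823, - strand) read 24.6 and 25.02 CPM in NTC-Veh, 44.6, 46.1 and 68.6 CPM in NTC-CCl4, 69.9 and 64.1 CPM in sgBap1-Veh and 35.8, 50.7 and 43.02 CPM in sgBap1-CCl4 livers. The vehicle livers of the genotypes lay far apart, and their CCl4 livers overlapped. The interaction was -1.73 on the log2 scale (unadjusted p = 1.01e-04, adjusted p = 0.0694).

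Interferon-stimulated genes had 27 of 36 higher and none lower in NTC livers (median 0.92) and 26 with an unadjusted interaction p under 0.05, all negative. Kupffer cell markers had 11 higher and 1 lower in NTC livers (median 1.29) and 12 of 20 with a negative unadjusted interaction. B and plasma cell markers had 7 higher and none lower in NTC livers, with 12 of 23 negative interactions by unadjusted p. T and NK cell markers had 11 higher and 1 lower in NTC livers, with 9 of 29 negative interactions by unadjusted p. Monocyte and scar-associated macrophage genes had 26 higher and 1 lower, with 7 of 30 negative and 2 positive interactions by unadjusted p. Chemokines and their receptors had 25 higher and 3 lower, with 7 of 37 negative interactions by unadjusted p. DESeq2's Wald test called the interaction of 2.47% of all tested genes. It called 9 in the class II list, 17 among interferon-stimulated genes, 6 among Kupffer markers and 2 among B cell markers. It called 7 among monocyte genes, 5 among chemokines and 0 among T and NK cell markers.

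In the other direction, 13 of 25 p53 targets had a positive unadjusted interaction p under 0.05 and 1 a negative one (NTC median 0.22), and so did 11 of 24 immediate early genes, with 1 negative. Cdkn1a read 46.5 and 21.9 CPM in NTC-Veh and 83.6, 91.04 and 79.9 CPM in NTC-CCl4 livers, so that the sgBap1 livers started lower and ended higher. Mt2 read 246 and 125 CPM and 145, 143 and 258 CPM in NTC livers, where the groups overlapped, and rose 4.55-fold in sgBap1 livers (interaction unadjusted p = 0.00151, adjusted p = 0.135). Acly read 341 and 457 CPM and 241, 215 and 243 CPM in NTC livers. It started more than 2-fold higher in sgBap1-Veh livers and reached the same range after CCl4. Of the 20 fatty acid synthesis genes, 10 had a negative unadjusted interaction p under 0.05. DESeq2's Wald test called 10 interactions among p53 targets, 4 among immediate early genes and 8 among fatty acid synthesis genes.

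**Figure D5:**
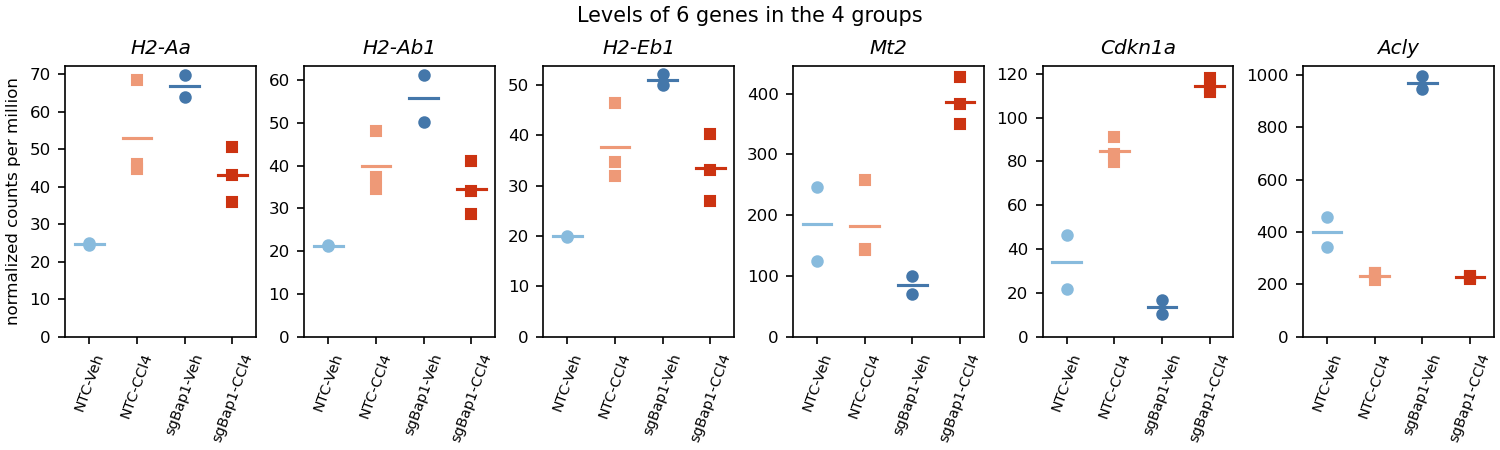
Levels of 6 genes in normalized CPM (y axis, from 0) in each of the 10 livers by group, with group means as bars. For H2-Aa, H2-Ab1, H2-Eb1 and Acly the sgBap1-Veh livers have the highest group mean, and for Cdkn1a and Mt2 the lowest.

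The genes with the largest interactions among the 50 smallest p were mixed. The gene models Gm10335 and Gm2004 were at 0 in sgBap1-Veh and read 3.201, 3.78 and 2.49 CPM and 1.58, 0.959 and 0.829 CPM in sgBap1-CCl4 livers, but share 88.1% and all of their 50-base stretches with other genes. Camk2b, a calcium-dependent kinase, had log2 fold changes of -2.75 in NTC and -0.64 in sgBap1 livers, where the call was lost without sgBap1-CCl4 replicate 1 (adjusted p = 0.0718), replicate 3 (0.082) or sgBap1-Veh replicate 2 (0.53). Pnpla5, a lipid droplet lipase, read 0.0817 and 0.0554 CPM and 0.469, 0.0564 and 0.1301 CPM in NTC livers. In sgBap1 livers it read 1.18 and 1.95 CPM and 0.01703, 0.0171 and 0.0638 CPM. The NTC-Veh and sgBap1-CCl4 values were at or under 3 counts per library, as was that of NTC-CCl4 replicate 2. DESeq2's Wald test gave no adjusted p for the interactions of Pnpla5 and of Xcl1, given below. Gbp2b, an interferon-induced GTPase, fell from 9.88 and 10.4 CPM to 0.238, 0.496 and 0.531 CPM in sgBap1 livers and read 2.695 and 1.66 CPM and 0.725, 0.582 and 1.51 CPM in NTC livers. Xcl1, a chemokine of NK and CD8 T cells, fell from 0.431 and 0.449 CPM to 0.0681, 0.1198 and 0.149 CPM in sgBap1 livers and rose from 0.136 and 0.0554 CPM to 0.384, 0.301 and 0.364 CPM in NTC livers. All 6 had an adjusted interaction p between 0.0694 and 0.0708.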

How the data were processed

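Bulk polyA-selected RNA-seq of mouse liver was deposited as 1 table of estimated counts per gene, which the authors made with STAR 2.7.6a and Salmon 1.4.0 (versions and the GRCm38 build per the submitters' processing notes) on GENCODE vM25. The deposited estimated counts were rounded to whole numbers, since 9.22% of values were not whole. Salmon can split reads between near copies of a gene, and the share of each named gene's 50-base stretches found in other genes was computed from GENCODE vM21 transcripts. Gene positions are from the same release (GRCm38), and promoters from RefSeq (GRCm38.p6).

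All 10 libraries were fitted by genotype and treatment in edgeR 4.0.16 (R 4.3.3) after filterByExpr and TMM normalization, with glmQLFit (robust) and glmQLFTest, which kept 17015 of 55291 rows. Contrasts were sgBap1-CCl4 against sgBap1-Veh, NTC-CCl4 against NTC-Veh and their difference (the interaction). Library totals of 33047904 to 52199904 counts set the precision of low counts. Replicates of a group correlated with a Pearson r of 0.977 to 0.988 on the log scale, and none matched within counting noise. Fold bounds take 3 counts per library as the limit of detection, averaged over a group. The code was tested on simulated counts.

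Named genes are the 12 largest rises and 12 largest falls among called genes that averaged 100 counts or more, every library of the lower group above 3 counts, groups that do not overlap and no gene model name, the first 3 genes of each list with the 4 of largest change, Bap1, and the 3 largest positive and 3 largest negative interactions among the 50 smallest p. The 41 gene lists, the comparison and its members were chosen with earlier results of these data known. A few genes that the rule names are not reported here. A few further genes were named after their values were seen, as stated beside them. Alternatives were DESeq2 1.42.0 (size factors, and its Wald test), scaling by library size alone, no expression filter, a mean of at least 10 counts, a replicate block, edgeR's older quasi-likelihood method, the 5 sgBap1 libraries alone and leaving out each library. Those for the NTC comparison, and leaving out NTC libraries, were added after seeing the data.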

Additional observations from a re-analysis of the deposited data

Results flagged for a closer look

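Of 17015 tested genes, 21 had calls of opposite sign in sgBap1 and NTC livers. For 4 of the genes named here the calls in sgBap1 and NTC livers had opposite signs and the CCl4 and vehicle livers did not overlap in either genotype. The class II chains H2-Aa, H2-Ab1 and H2-Eb1 rose in NTC livers, with log2 fold changes of 1.10, 0.91 and 0.92, and fell in sgBap1 livers, with -0.63, -0.69 and -0.61. Their interactions were -1.73, -1.60 and -1.53 on the log2 scale, none of which passed after adjustment with edgeR's quasi-likelihood test (adjusted p = 0.0694 for each). DESeq2's Wald test gave adjusted p of 4.38e-06, 4.45e-06 and 3.80e-05, and without sgBap1-CCl4 replicate 2 edgeR gave 0.0715, 0.0476 and 0.0623. The sgBap1 falls of these genes were not called with scaling by library size alone, where their unadjusted interaction p was 3.30e-04, 3.17e-04 and 5.88e-04.

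Xcl1, a chemokine of NK and CD8 T cells, read 0.431 and 0.449 CPM in sgBap1-Veh, 0.0681, 0.1198 and 0.149 CPM in sgBap1-CCl4, 0.136 and 0.0554 CPM in NTC-Veh and 0.384, 0.301 and 0.364 CPM in NTC-CCl4 livers. Its interaction was -3.79 on the log2 scale (edgeR adjusted p = 0.0708), at low counts in every library. DESeq2's Wald test gave no adjusted p for this interaction. No cause of these differences was tested.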

How the results depend on the processing

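The number of genes changed by CCl4 in sgBap1 livers ran from 7729 to 11002 over the alternatives, and the share of them that was higher was 49.6% with DESeq2's size factors, 78.3% with scaling by library size alone, 52.5% with no filter and 49.4% to 50.8% when single libraries were left out. Whether the replicate numbers pair these livers could not be told. The correlations were 0.02 and -0.13 for the same-numbered livers. With 2 vehicle livers, however, their deviations from the group mean mirror each other. A fit with the replicate block called 8898 genes, within the range above. Of 3500 alternative fits of named genes, 3346 stayed on the same side of the threshold, 101 lost and 49 gained the call, and 4 reversed.

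Scaling by library size alone reversed Hnf4a (0.26), Cpt2 (0.0399), Srebf2 (0.34) and Ccng1 (0.42) on the log2 scale and called Bap1 higher within sgBap1 livers (0.55), with the all-gene median at 0.52. The interaction was called for 2 genes with that scaling, 34 with no filter, 420 with DESeq2's Wald test and 0 to 7 when single libraries were left out. Members called with that scaling numbered 12 for cholesterol synthesis, 9 for T and NK cells, 2 for B cells, 5 for MHC class II and 2 for red blood cells. With no filter they numbered 13 for cholesterol synthesis and 1 for mesothelial cells. With the 5 sgBap1 libraries alone they numbered 7 for T and NK cells, 3 for B cells and 1 for pancreas, and with a mean of at least 10 counts 1 for pancreas and 0 for muscle. B cell markers had 1 call with DESeq2's size factors, 1 with the replicate block, 1 with the older edgeR method and 3 with DESeq2's Wald test.

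When single sgBap1 libraries were left out, called members ran from 10 to 22 for cholesterol synthesis, 9 to 17 for acute-phase proteins, 7 to 10 for Kupffer cells, 2 to 7 for T and NK cells, 0 to 3 for B cells, 3 to 12 for MHC class II, 13 to 19 for interferon-stimulated genes, 3 to 9 for fat cells, 1 to 2 for pancreas, 0 to 1 for muscle and 0 to 2 for mesothelial cells. List medians changed sign with scaling by library size alone for B cells, T and NK cells, MHC class II and interferon-stimulated genes. Apart from the scaling and the fewer samples or genes these settings use, the cause was not tested. At the depth of these libraries, genes under about 0.1 CPM were not measurable.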
